A study of Rattus norvegicus with 38 samples.

Results

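Kidney RNA of 10 rats given anti-Fx1A alone was compared with that of 8 rats given vehicle, which together are 18 of the 38 animals of a series on glomerular and tubular injury. The animals were chosen by their sample titles: animals 9 to 18 had received anti-Fx1A at 2.5 mL/kg without L-NAME, and animals 1 to 8 had received vehicle. All animals were studied after 7 weeks of treatment, with 1 kidney library per animal. The other groups of the series, L-NAME alone at 20 mg/kg per day (10 animals, 19 to 28) and L-NAME at that dose with anti-Fx1A at 2.0 mL/kg (10 animals, 29 to 38), enter below only where they are set beside the antiserum alone. The sources used here do not state the strain, sex or age of the rats, or what the vehicle was.

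Fx1A is a crude fraction of rat proximal tubule brush border. Antibodies raised against it bind antigens of that border, of which megalin is the best known, and the same antigens on the foot processes of rat podocytes. In passive Heymann nephritis, a rat model of membranous nephropathy, immune deposits form under the podocytes, complement is activated there, and protein passes into the urine. L-NAME blocks nitric oxide synthase and raises blood pressure.

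The table identifies genes by Ensembl rat numbers, and 0 of its 30207 identifiers matched a gene name in the sources used here. Genes are therefore described by identifier, level, size of change and animal, and neither the kidney label nor any cell type was checked against marker genes. The labels give no kidney region. In RNA of mixed kidney cells, fewer cells of a type and less RNA per cell cannot be told apart. Of the 30207 genes, 12599 were tested: those whose mean over the 38 animals lay at least 1 log2 unit above the value of a count of 0. The deposited values are log2 counts scaled by library size and variance-stabilised, on which the change of genes with few reads is understated.

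The anti-Fx1A libraries did not form a single cluster. Animals 9 to 12 had 4434855 to 5228067 reads and animals 13 to 18 had 6454754 to 7119831, with no antiserum library in between. The share of reads taken by the 10 most abundant genes of a library was 23.3% in animal 9, 18.2% in animal 10, 20.96% in animal 11 and 25.7% in animal 12. It was 34.4% in animal 13, 37.3% in animal 14, 38.4% in animal 15, 30.1% in animal 16, 35.1% in animal 17 and 35.1% in animal 18. The 8 vehicle libraries lay between these runs, from 28.07% to 32.99%, and only anti-Fx1A animal 16 fell within that range. The vehicle libraries spanned 4120902 to 7728848 reads with no such change in share. No label gives a batch, and the part of these runs in the results was not tested beyond the fits without them. The main results below are also given without each run of animals, a choice that came after looking at the libraries.

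**Figure D1:**
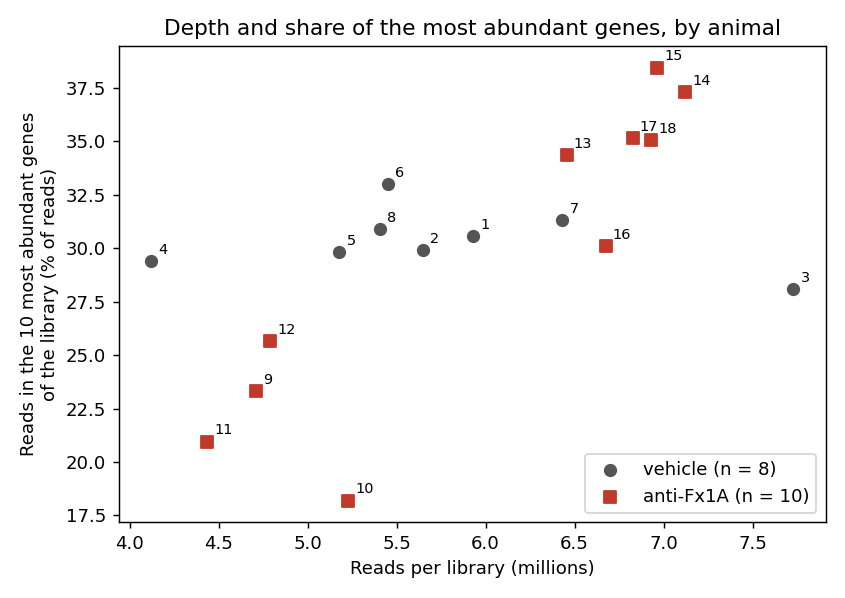
Each point is 1 library, numbered by animal, with its reads on the x axis (in units of 1000000) and the percentage of its reads in its 10 most abundant genes on the y axis. Anti-Fx1A animals 9 to 12 sit below the vehicle animals (18.2% to 25.7% against 28.07% to 32.99%), and animals 13 to 15, 17 and 18 sit above them.

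Between the groups, no mean of a library measure passed an exact permutation test after adjustment over the 5 measures compared. Mean depth was 5736477 ± 1042443 reads with vehicle (SD, n = 8) and 6012765 ± 1083278 with anti-Fx1A (n = 10; two-sided exact permutation p = 0.587, adjusted 0.733). The mean share of the 10 most abundant genes was 30.4 ± 1.45% with vehicle (n = 8) and 29.9 ± 7.30% with anti-Fx1A (n = 10; exact permutation p = 0.849, adjusted 0.849), with the runs on either side of the vehicle mean and a larger SD. The other treated groups also spread beyond vehicle on both sides. Shares ran from 21.9% (animal 25) to 34.8% (animal 20) with L-NAME, and from 21.1% (animal 35) to 37.5% (animal 38) with the combination. The L-NAME shares left a gap as well. Animals 21, 22, 23 and 25 had 23.4%, 24.3%, 24.6% and 21.9%, and the other L-NAME animals had 28.7% (animal 19) or more. Genes with at least 1 read numbered 16550 ± 183 with vehicle (n = 8) and 16817 ± 220 with anti-Fx1A (n = 10). That difference of 267 genes had an exact permutation p of 0.0130 before and 0.0649 after adjustment.

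Anti-Fx1A alone was set against vehicle to ask what the antiserum did to the kidney by itself. Genes that passed were few and mostly higher. The call (limma, Benjamini-Hochberg adjusted p under 0.05) was reached by 139 of the 12599 genes tested (1.1%). Of these, 117 (0.929%) rose and 22 (0.175%) fell relative to vehicle. The log2 fold changes of the called genes ran from 0.30 to 1.67 upward and from -0.26 to -0.63 downward. The median change over all genes tested was 0.0013 log2 units, which the scaling by library size holds near 0. At the threshold, the last gene called had an adjusted p of 0.0488 and the first not called 0.0516, with log2 fold changes of -0.29 and 0.30.

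**Figure D2:**
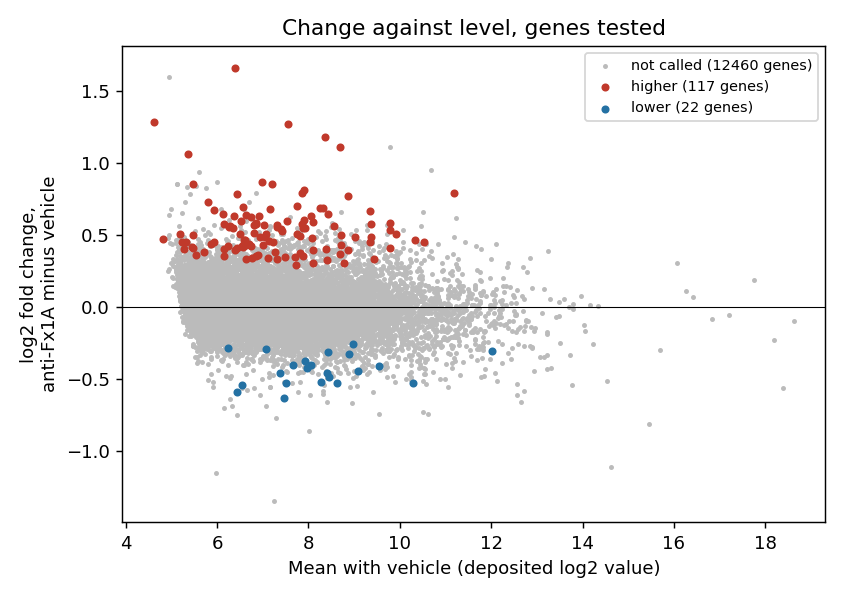
Each point is 1 of the 12599 genes, with its vehicle mean (deposited log2 value) on the x axis and the log2 fold change of anti-Fx1A minus vehicle on the y axis. The 117 higher genes are spread over all 3 classes of level (31, 45 and 41 genes from least to most abundant), the 22 lower genes lie mostly in the most abundant class (14), and the most abundant genes at the right were not called.

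The genes that rose and those that fell differed in their median vehicle level, a difference that was not tested. The vehicle mean also enters the contrast that chose these genes. A low vehicle value favours a call upward and a high one a call downward. How much the choice adds to the difference was not tested. The 22 lower genes had a median vehicle value of 8.17 on the deposited log2 scale, against 7.12 for the 117 higher genes and 7.10 for all genes tested. The genes tested were divided into 3 classes of nearly equal size by their vehicle mean. The class of 4200 least abundant genes held 31 genes that rose and 2 that fell, and the class of 4200 most abundant genes held 41 and 14. The share called was 0.786% in the least abundant class, 1.21% in the middle class and 1.31% in the most abundant class, so genes were called in each class. A vehicle median of 10 reads or fewer was found for 7 of the 117 higher genes, 0 of the 22 lower genes and 433 of the 12599 genes tested, which is a larger share of the higher genes than of all genes tested. The filter used the mean of all 38 animals, so a gene with a vehicle mean under it was tested only where other groups lifted that mean. Such a gene also has little room to fall, so these shares follow in part from the filter and the floor.

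The called genes typically lay beyond the vehicle range in most, but seldom in all, of the antiserum animals. This contrast, with these same animals, chose the genes, which favours high counts of animals beyond the range. The counts for the called genes therefore describe them and do not test the change. The medians were not taken over all genes tested, so they have no baseline. For the 117 higher genes, a median of 8 of the 10 anti-Fx1A animals lay above the highest vehicle animal, with as few as 1 and as many as 10. For the 22 lower genes a median of 8.5 animals lay below the lowest vehicle animal, with a range of 3 to 10. All 10 animals lay beyond every vehicle animal in 7 genes that rose and 2 that fell. Over all genes tested, 10 genes (0.0794%) had all anti-Fx1A animals above vehicle and 3 genes (0.0238%) had all below.

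Taken animal by animal, the changes of the called genes were shared by both runs of antiserum animals. The median deviation of the 117 higher genes from their vehicle mean was 0.36 log2 units in animal 9, 0.55 in animal 10, 0.50 in animal 11 and 0.62 in animal 12. It was 0.54 in animal 13, 0.56 in animal 14, 0.70 in animal 15, 0.25 in animal 16, 0.58 in animal 17 and 0.50 in animal 18. In both runs of animals the values lay on the same side and their ranges overlapped, with animal 16 lowest and animal 15 highest. For the 22 lower genes the median deviation ran from -0.71 in animal 10 to -0.26 in animal 16. The genes were chosen by this contrast, so these medians describe how the animals share the change and do not test it.

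The gene with the largest increase was ENSRNOG00000049829. Its deposited log2 values with vehicle were 6.94, 6.64, 6.28, 5.81, 6.10, 6.71, 6.78 and 5.94 in animals 1 to 8. With anti-Fx1A they were 9.11, 11.13, 7.21, 7.61, 7.23, 7.44, 7.40, 7.00, 9.30 and 7.23 in animals 9 to 18. All 10 antiserum animals lay above all 8 vehicle animals, but 7 of them were between 7.00 and 7.61, and animals 9, 10 and 17 stood well above the rest. In reads the gene ran from 16 to 86 with vehicle (median 57) and from 93 to 2255 with anti-Fx1A (median 136.5), the highest count being that of animal 10. The mean was 6.40 ± 0.42 with vehicle (SD, n = 8) and 8.07 ± 1.35 with anti-Fx1A (n = 10), a log2 fold change of 1.67 (SE 0.40, limma adjusted p = 0.0261). The medians, 6.46 and 7.42, lay closer together than the means. Without animals 9 to 12 the log2 fold change was 1.20 (adjusted p = 0.0468) and without animals 13 to 18 it was 2.37 (adjusted p = 0.00389). The call did not hold in a fit of only these groups (1.67, adjusted p = 0.123) or with voom on recovered reads (2.14, adjusted p = 0.0715). It also missed the threshold without vehicle animal 4 (1.58, adjusted p = 0.0599), vehicle animal 8 (1.60, 0.0600) or anti-Fx1A animal 17 (1.53, 0.0527).

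The second largest increase was that of ENSRNOG00000069267, a gene close to the floor in vehicle kidney. Its reads in vehicle animals 1 to 8 were 0, 3, 0, 3, 3, 1, 1 and 0. In anti-Fx1A animals 9 to 18 they were 41, 51, 34, 15, 9, 39, 30, 8, 37 and 29. Every antiserum animal exceeded every vehicle animal, in reads and in the deposited value, and the lowest, animals 13 and 16, had 9 and 8 reads. The deposited mean was 4.63 ± 0.28 with vehicle (SD, n = 8) and 5.91 ± 0.44 with anti-Fx1A (n = 10), a log2 fold change of 1.29 (SE 0.17, limma adjusted p = 8.07e-06). The deposited scale understates this change. Pooled over animals, 293 of the anti-Fx1A reads and 11 of the vehicle reads came from the gene, which is 4.87 and 0.240 CPM (reads of the gene per 1000000 reads), a ratio of 20.3 (exact 95% interval 11.2 to 41.2, for counting error only). It was called without animals 9 to 12 (1.12, adjusted p = 0.000474) and without animals 13 to 18 (1.53, adjusted p = 2.19e-05). Its means with vehicle and with L-NAME (5.03) lay under the filter (5.32), so it was tested only through the groups given antiserum. With no filter it was also called (1.29, limma adjusted p = 1.49e-05).

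The largest decrease was that of ENSRNOG00000020989. Its log2 values with vehicle were 7.56, 7.21, 7.25, 8.19, 7.75, 7.11, 7.14 and 7.52 in animals 1 to 8. With anti-Fx1A they were 6.66, 6.48, 6.95, 6.91, 6.86, 6.98, 6.84, 7.08, 6.70 and 6.90 in animals 9 to 18. The groups did not overlap, although the highest antiserum animal (animal 16) lay only just below the lowest vehicle animal (animal 6). The mean fell from 7.47 ± 0.37 (SD, n = 8) to 6.84 ± 0.18 (n = 10), a log2 fold change of -0.63 (SE 0.12, limma adjusted p = 0.00351). Median reads were 140 with vehicle and 77.5 with anti-Fx1A. The decrease was called without animals 9 to 12 (-0.57, limma adjusted p = 0.0178) and without animals 13 to 18 (-0.72, adjusted p = 0.00710).

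The next decrease in size was that of ENSRNOG00000018874, which had few reads in both groups. Its log2 values with vehicle were 6.45, 6.56, 6.34, 6.55, 6.52, 6.64, 6.25 and 6.204 in animals 1 to 8. With anti-Fx1A they were 6.198, 5.69, 5.72, 5.69, 5.59, 5.81, 5.72, 6.24, 5.80 and 6.02 in animals 9 to 18. Antiserum animal 16 lay within the vehicle range, animal 9 lay just below it, and the other 8 were lower still. The mean fell from 6.44 ± 0.16 (SD, n = 8) to 5.85 ± 0.23 (n = 10), a log2 fold change of -0.59 (SE 0.13, limma adjusted p = 0.0107). Median reads were 50.5 and 23. Without animals 9 to 12 the log2 fold change was -0.58 (limma adjusted p = 0.0272) and without animals 13 to 18 it was -0.61 (adjusted p = 0.0233).

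**Figure D3:**
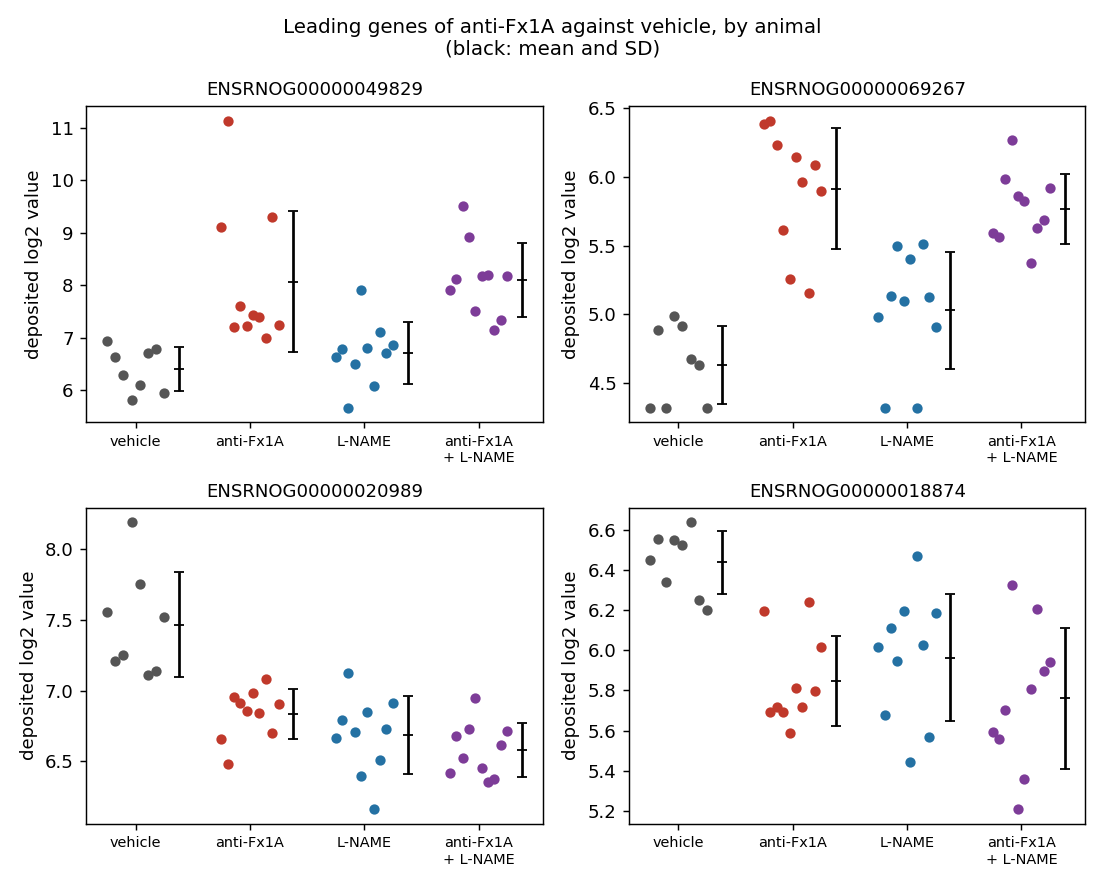
Each point is 1 animal, in animal order from left to right within its group, with the deposited log2 value on the y axis of each panel, and black bars show the group mean and SD. The upper panels show the 2 genes of largest increase, in which all 10 anti-Fx1A animals lie above the vehicle animals, and the lower panels the 2 of largest decrease.

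In a further set of genes, antiserum animals lay apart from vehicle in opposite directions. In 268 of the 12599 genes tested (2.13%), at least 3 anti-Fx1A animals lay above the highest vehicle animal while at least 3 others lay below the lowest. Such genes have group means near vehicle and a wide spread, so they can hardly be called on the group mean, and 0 of the 139 called genes were among them. With the same 8 vehicle animals as the frame, 92 genes (0.730%) showed this pattern with L-NAME alone and 82 (0.651%) with the combination, both also of 10 animals. These counts share the vehicle animals and the difference between them was not tested. The animals fell out by number. In 170 of the 268 genes at least 3 of animals 9 to 12 were below the vehicle range and at least 3 of animals 13 to 18 above it, and in 56 the order was the opposite. The pattern was more frequent among abundant genes, at 3.31% of the most abundant class, 1.95% of the middle class and 1.12% of the least abundant class.

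**Figure D4:**
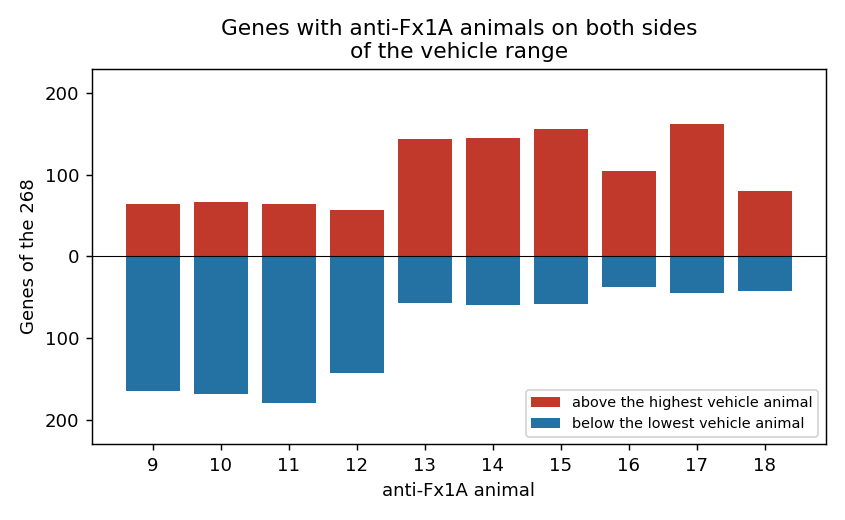
For each anti-Fx1A animal, the bars count how many of the 268 genes it held above the highest vehicle animal (upward) or below the lowest (downward). Animals 9 to 12 are below vehicle in 143 to 180 of the genes and above in 57 to 66, while animals 13 to 18 are above in 80 to 162 and below in 38 to 59.

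The 10 genes most abundant in vehicle kidney also moved apart among the antiserum animals. They took 17.1% to 25.6% of the reads in animals 9 to 12, 30.1% in animal 16 and 34.4% to 38.4% in the other 5, against 28.1% to 32.9% with vehicle. In each of animals 9 to 12, between 5 and 9 of the 10 genes lay below the vehicle range and 0 above it. In animals 13, 14, 15, 17 and 18, between 4 and 7 lay above it and 0 below. Animal 16 did not share this: 0 of the 10 genes lay above the vehicle range and 3 below it, the direction of animals 9 to 12. In the group means 0 of the 10 genes were called (limma, lowest adjusted p 0.153), with 1 at an unadjusted p under 0.05, and their log2 fold changes ran from -0.56 to 0.31.

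The deviations of antiserum animals from their own group mean were compared across the 12599 genes, as a description, since genes are not independent and deviations within a group sum to 0. Among the 6 pairs within animals 9 to 12 the correlation had a median of 0.269 and was positive in 6. Among the 15 pairs within animals 13 to 18 the median was 0.187 and all 15 were positive. Among the 24 pairs with 1 animal of each run the median was -0.443, and 0 were positive. Over all 45 pairs of a group, correlations ran from -0.61 to 0.50 with anti-Fx1A (21 positive) and from -0.58 to 0.38 with L-NAME (18 positive). With the combination they ran from -0.54 to 0.50 (12 positive). The spread of single genes was only slightly wider with anti-Fx1A than with vehicle, with a median SD of 0.235 against 0.224 log2 units, and 55.5% of genes had the larger SD with anti-Fx1A.

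The number of genes called against vehicle was larger when either run was left out. Without animals 9 to 12, the other 6 antiserum animals gave 302 higher (2.4%) and 66 lower genes (0.524%; limma). Without animals 13 to 18, the other 4 gave 647 higher (5.14%) and 544 lower genes (4.32%). By count, the calls of animals 13 to 18 were mostly upward and those of animals 9 to 12 were nearly even in direction. Of the 117 genes called higher with all animals, 85 were called higher without animals 9 to 12 and 78 without animals 13 to 18, and of the 22 lower genes 10 and 18. The 139 genes were chosen with these same animals and vehicles, so their direction in either fit is largely fixed by the choice. Their median log2 fold changes were 0.51 and 0.48 for the higher and -0.36 and -0.51 for the lower genes.

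**Figure D5:**
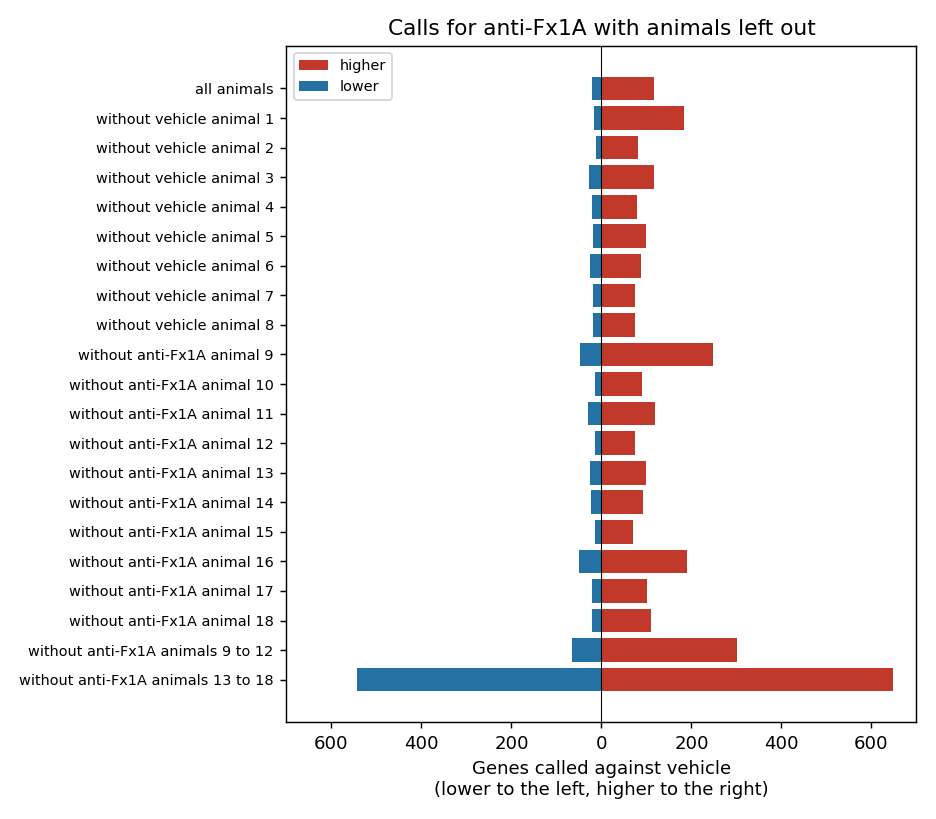
Bars give the genes called lower (left) and higher (right) for anti-Fx1A against vehicle with all animals, with each animal left out, and with each run of antiserum animals left out. The counts are 117 and 22 with all animals, 302 and 66 without animals 9 to 12, and 647 and 544 without animals 13 to 18.

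Single animals moved the count as well. Without antiserum animal 9 the higher and lower calls were 247 and 47, and without animal 16, whose called genes deviated least, they were 190 and 51. Without vehicle animal 1 they were 184 and 17. They fell to 71 and 14 without antiserum animal 15 and to 75 and 14 without animal 12. Without antiserum animal 10 the 117 and 22 became 91 and 14. Vehicle animals 7 and 8 each lowered the higher calls, to 74 and 75, when left out, and without vehicle animal 2 the lower calls were 12.

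The antiserum was also given on top of L-NAME, at 2.0 mL/kg, and that comparison (the combination against L-NAME alone) shares no animal with anti-Fx1A against vehicle. ENSRNOG00000069267 was higher there too, with a log2 fold change of 0.74 (SE 0.16, limma adjusted p = 0.0135). Having passed the filter only through the groups given antiserum, the combination among them, this gene was not chosen independently of the comparison. Its reads were 0 to 18 with L-NAME alone (median 6), and 14 to 43 in rats given both agents (median 21.5). ENSRNOG00000049829 was 1.395 higher (SE 0.38) and just missed the threshold (limma adjusted p = 0.0536), with a median of 67 reads with L-NAME and 245 with both agents. The genes that fell had smaller values there, at -0.10 for ENSRNOG00000020989 (limma adjusted p = 0.684) and -0.20 for ENSRNOG00000018874 (adjusted p = 0.422). L-NAME alone already had both below vehicle, at -0.78 for ENSRNOG00000020989 (limma adjusted p = 4.35e-05) and -0.48 for ENSRNOG00000018874 (adjusted p = 0.0105).

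Of the 22 genes lowered by the antiserum alone, 19 were below L-NAME in the combination, with a median of -0.08 log2 units, and 0 were called lower, where 46 of all genes tested (0.365%) were. Among all genes tested 49.1% were below. Of the 117 raised genes 103 were above, with a median of 0.13, where 50.9% of all genes tested were, and 5 were called higher, where 105 of all genes tested (0.833%) were. The difference between the antiserum effects with and without L-NAME was called in 0 of 12599 genes (limma interaction), with 1102 at an unadjusted p under 0.05 (8.75%). Of the 117 raised genes 0 had a larger value with L-NAME than without, with a median difference of -0.38 log2 units. Of the 22 lowered genes 0 had a more negative value with L-NAME, with a median difference of 0.37. The effect without L-NAME chose these genes and enters the difference, which favours this direction. The antiserum dose also differed between these settings.

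Anti-Fx1A alone was compared directly with L-NAME alone to find genes on which the single treatments differed. Relative to L-NAME, the antiserum group had 31 genes (0.246%) at a higher and 17 (0.135%) at a lower level (limma, adjusted p under 0.05). Of the 117 genes raised by anti-Fx1A over vehicle, 18 were also called higher than with L-NAME, and of the 22 lowered genes 0 were called lower. These comparisons share the anti-Fx1A animals, which raises such a count. The 18 genes had median log2 fold changes of 0.80 against vehicle and 0.70 against L-NAME, while L-NAME itself stood 0.10 above vehicle. In the combination against L-NAME, which uses none of the antiserum-only animals, 17 of the 18 were above 0, with a median of 0.36, and 4 were called higher. The L-NAME animals served in choosing the 18 and enter this comparison as well, which raises the values there. The other 99 raised genes had medians of 0.48 with anti-Fx1A and 0.49 with L-NAME, both against the same vehicle animals. They were chosen as not called between these treatments, which favours close medians. Over all 117 raised genes, the medians against vehicle were 0.50 with anti-Fx1A and 0.46 with L-NAME, with 113 above vehicle with L-NAME. Over the 22 lowered genes they were -0.43 and -0.49, with 22 below vehicle with L-NAME. Both contrasts use the same vehicle animals, which favours a shared direction.

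ENSRNOG00000069267 was among the 18, at 0.89 log2 units above L-NAME (SE 0.16, limma adjusted p = 0.00334), and its 0.40 with L-NAME against vehicle did not pass (adjusted p = 0.101). As given above, it was tested only through the groups given antiserum. ENSRNOG00000049829 was 1.36 above L-NAME (SE 0.38) and did not pass (adjusted p = 0.125). In the order of group means it stood at 6.40 with vehicle, 6.70 ± 0.59 with L-NAME, 8.07 with anti-Fx1A and 8.10 ± 0.71 with the combination (SD, n = 10 for the treated groups). The mean of ENSRNOG00000020989 was 6.68 ± 0.27 with L-NAME (n = 10), and the difference of anti-Fx1A from L-NAME was 0.15 (SE 0.11, limma adjusted p = 0.653). ENSRNOG00000018874 stood at 5.96 ± 0.32 with L-NAME (n = 10), from which anti-Fx1A differed by -0.12 (SE 0.12, limma adjusted p = 0.755).

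A last comparison placed the animals on the line from the mean of L-NAME to the mean of the combination over all genes tested, which no vehicle or antiserum-only animal had helped to define. A position is the sum over genes of log2 deviations from the mean of the 18 animals, weighted by the line scaled to unit length. It is not a total log2 change. On this line, vehicle animals stood at -3.97 ± 7.92 (SD, n = 8) and anti-Fx1A animals at 3.17 ± 9.999 (n = 10). The difference of 7.14 toward the combination did not pass (two-sided exact permutation p = 0.119, adjusted 0.297 over the 5 library measures). Antiserum animals ranged from -8.76 in animal 11 to 21.3 in animal 10, and animals 10, 13, 14, 15 and 17 were above vehicle animals 2 to 8. Vehicle animal 1 stood apart from its group at 11.2, with antiserum animals 10 and 15 above it. The groups that define the line overlapped on it, from -9.77 (animal 22) to 37.9 (animal 25) with L-NAME and from 17.3 (animal 36) to 40.8 (animal 35) with the combination. Position on the line therefore also reflects variation within groups.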

How the data were processed

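Kidney RNA was sequenced from 3' ends with the QuantSeq FWD kit, per the labels' protocols. The authors deposited 1 table of variance-stabilised log2 values that allow for library size, judging by the sheet's name and the values. Salmon 1.4.0, edgeR 3.40.2 and DESeq2 are named in the submitters' processing notes, with no role. Genome build and annotation: not given in the sources used here. Columns were matched to animals by library name. The table's header calls its columns animals, and labels give no batch or pairing.

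The lowest value, 4.31634, is a count of 0. With c as 2 raised to it and y as 2 raised to a value, (y - c) squared over y gave counts per size factor. All values of up to 10000 reads were whole reads to within 0.05 (100% per library), and depth is the sum of these reads (4120902 to 7728848 over the 38 libraries). Genes tested held at least 99.4% of each library's reads. Reads carry no molecular identifiers used here, so intervals cover counting error only.

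Group means of all 38 animals were fitted with limma 3.58.1 in R 4.3.3 (eBayes, trend, robust; Benjamini-Hochberg over 12599 genes, threshold 0.05). The fit was tested on simulated data. Single measures were compared by exact permutation over 43758 arrangements (Python 3.11.15). Alternatives were other scalings, filters, weights, covariates, voom and animals left out.

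Named genes are the 2 identifiers of largest log2 fold change in each direction among called genes. Without symbols, the gene lists, marker lists and panel planned were not run. Members, tests and lists were chosen with earlier results of these data known. No sequence is shown.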

Additional observations from a re-analysis of the deposited data

Results flagged for a closer look

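The root mean square distance of a library from the mean of the rest of its own group, over the genes tested, set 1 library apart in each group. Vehicle animal 1 stood at 0.519 log2 units, where the other 7 vehicle animals lay from 0.204 to 0.281. Anti-Fx1A animal 10 stood at 0.517, where the other 9 lay from 0.223 to 0.346. In each group the gap to the next animal was a larger part of the range than a limit that chance passes in about 1 of 20 groups, and 16 such checks were made. The mean distance was 0.291 ± 0.0964 with vehicle (n = 8) and 0.316 ± 0.0787 with anti-Fx1A (n = 10), with a two-sided exact permutation p of 0.531 (adjusted 0.733). Each distance was taken from the rest of its own group, so the values depend on one another and on group size. That test therefore cannot decide whether the spread of the groups differed. Library weights were lowest for these animals in their groups, at 0.279 and 0.300. The weights come from the same values and group means, so they are not separate support.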

How the results depend on the processing

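The counts of genes called for anti-Fx1A against vehicle (117 higher, 22 lower) stayed within 1.5 times under median centring, quantile normalisation, no filter, a filter at 2 log2 units, no trend and no robust estimation, and voom. They were 34 and 2 with a change of at least 1.5-fold required, 45 and 5 in a fit of only the groups compared, 466 and 158 with library weights, and 197 and 62 when the top 10 genes' share of reads was a covariate. When animals 1, 10 and 25 were all left out (a vehicle, an antiserum and an L-NAME animal), the higher calls were 183 (18 lower). Of alternatives added after the data were seen, leaving out anti-Fx1A animals 9 to 12 gave 302 and 66, leaving out animals 13 to 18 gave 647 and 544, and library depth as a covariate gave 152 and 35. With each animal left out in turn the higher calls ran from 71 to 247 and the lower from 12 to 51. Against L-NAME (31 higher, 17 lower) they ran from 16 to 36 and from 3 to 25, and the lower calls were 5 without the filter. The cause of these changes was not tested. The genes ENSRNOG00000069267, ENSRNOG00000020989 and ENSRNOG00000018874 kept their direction and call in every alternative in which they were tested (the first and last are below the filter at 2 log2 units). ENSRNOG00000049829 kept its direction in all, and lost its call in those given above.

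With 0 to 3 reads in each vehicle animal, the change of ENSRNOG00000069267 is limited by counting error, and its log2 fold change was 4.11 with voom against 1.29 on the deposited scale.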

Other observations

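The axis along which L-NAME and combination animals varied most within their own groups held 33.6% of that variance (20 animals, none of them vehicle or antiserum alone). Relative to the vehicle mean, anti-Fx1A animals 9, 11 and 12 lay at 6.83, 8.86 and 1.87 on it, all above animals 13 to 18, which lay from -13.2 to -0.864. Animal 10, whose library stood apart from its group, lay below them at -24.3, and vehicle animals lay from -21.3 to 8.78. These positions are sums over genes of log2 deviations, weighted by the axis scaled to unit length.

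Among the 17608 genes under the filter, 0 had no read in any vehicle animal and reads in at least 8 anti-Fx1A animals. In the opposite direction, 0 had no read in any anti-Fx1A animal and reads in at least 6 vehicle animals.

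Single antiserum animals differed in how many of the 12599 genes they held outside the vehicle range. Animal 10 had 3024 genes above and 2905 below it, and animal 16 had the fewest, with 1011 above and 983 below. An animal no different from vehicle would also lie outside the range of 8 vehicle animals in many genes. These counts are therefore not counts of changed genes.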
